A study of Saccharomyces cerevisiae with 9 samples.

Results

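The genes described here encode the nuclear subunits of the yeast respiratory chain and of the mitochondrial ATP synthase, with the small inhibitor proteins of that enzyme. The list names 39 genes. All 39 were measured, each by 1 probe set of its own, among 5449 Saccharomyces cerevisiae genes on the array. Members were picked by gene name, with no threshold on their values. Expression was measured on 9 arrays of total RNA from 3 strains, with 3 arrays per strain. D126 carries a pair of desaturase genes from the fungus Mucor rouxii, D12- and D6-desaturase. D12 carries the D12-desaturase gene alone, and REF is the reference strain. Cells of all 3 strains came from chemostats limited by glucose (dilution rate 0.1 per h), held at steady state for 5 residence times or more. The labels name neither the host genotype nor the promoter of either desaturase gene.

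In a chemostat a steady feed of glucose keeps the residual sugar low, and yeast under these conditions respires the sugar rather than fermenting it. Electrons from NADH and succinate enter the inner mitochondrial membrane, pass through ubiquinone to complex III (the cytochrome bc1 complex), then through cytochrome c to complex IV (cytochrome c oxidase) and oxygen. Complexes III and IV pump protons, and the ATP synthase uses the proton gradient to make ATP. Baker's yeast has no proton-pumping complex I. Instead, single-protein NADH dehydrogenases feed electrons to ubiquinone: Ndi1 on the matrix side, and Nde1 and Nde2 on the outer side of the membrane, where they oxidise cytosolic NADH. The genes of the chain are activated by the CCAAT-binding Hap2/3/4/5 complex and, for some, by the heme-responsive factor Hap1.

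Expression is given on the log2 scale, as the authors normalized it. Per-array values are given in the order of replicates 1, 2 and 3, strain values as mean ± SD (n = 3 arrays), and differences as log2 changes with their standard error (SE). A gene was called when its adjusted p was under 0.05 in limma's moderated test over all 5449 genes. Nothing in the labels states that replicates were separate cultures, so each p-value reflects the spread among these arrays alone, which may be technical. In bulk RNA, a change in the share of cells that express a gene and a change in its RNA per cell cannot be told apart. Member means lay between 12.66 and 14.81, except for QCR8 at 10.98, against a median of 10.96 over all genes. Changes near the top of the scale may be compressed, which was not tested.

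The members moved together from array to array within strains as well as between them. D126 replicate 1 held the highest of the 3 D126 values for 36 of the 39 genes (43.3% of all genes). REF replicate 3 held the lowest REF value for 31 genes (39.9% of all genes), and D12 replicate 3 the highest D12 value for 27 (50.9% of all genes). The median difference of the 39 genes from their 9-array means was 0.11, 0.04 and 0.05 on the D126 arrays, -0.05, -0.04 and 0.03 on the D12 arrays, and 0.00, -0.03 and -0.09 on the REF arrays. All 3 D126 medians thus lay above those of the other 6 arrays, D126 replicate 2 only narrowly above D12 replicate 3.

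**Figure D1:**
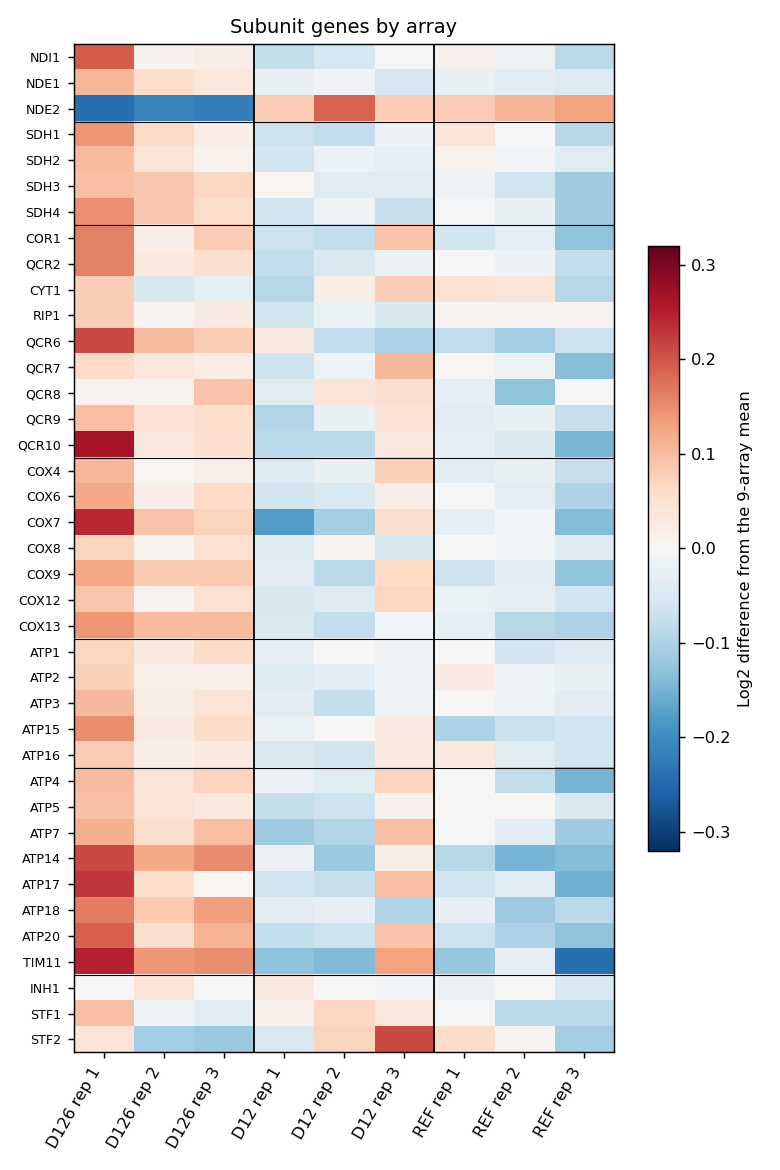
Difference of each of the 39 genes (rows, grouped by complex) from its own mean over 9 arrays (log2, colour) on the arrays of D126, D12 and REF (columns). Most rows are highest in D126 replicate 1, while NDE2 is lowest on the 3 D126 arrays.

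The first comparison asked how the respiratory genes stood in the strain with both desaturases. In D126, 11 of the 39 genes rose and 1 fell relative to REF, and 27 were not called. The rising share, 28.2%, stood beside 8.59% of all genes called higher, and 12.9% of all genes were called lower. Counting genes without regard to the test, 37 of 39 changes were above 0, with a median of 0.11 (7.87% on the linear scale), against 48.6% of all genes above 0 and a median of -0.003. The 3 D126 values lay wholly above the 3 REF values for 31 genes, against 22.2% of all genes, and wholly below for 1, against 25.7% of all genes. At an unadjusted p under 0.05, 21 members were higher and 1 was lower, against 16% and 19.8% of all genes. The changes were small: the largest increase, in TIM11, was 0.31 and the only called decrease, in NDE2, was 0.33. The 37 positive changes were also counted with quantile normalization and with arrays centred on their medians.

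How many genes were called rested on single arrays. The count of rising genes was 6 without REF replicate 2 or without D126 replicate 1, and 5 without REF replicate 3 or without D126 replicate 3. Higher calls over all genes were 468 in the main fit and 241 and 274 without REF replicates 2 and 3. They were 310 and 256 without D126 replicates 1 and 3. Without D12 replicate 3, 16 members and 651 of all genes were called higher. With D126 replicate 1, D12 replicate 3 and REF replicate 3 left out together, a choice made after the data were seen, 8 genes rose and 1 fell, 36 changes were above 0 and the median was 0.073. Over all genes that fit called 444 higher and 722 lower, with a median of -0.003. NDE2, QCR6, COX13, ATP14 and ATP18 were called in the same direction in each of the 20 alternative fits.

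**Figure D2:**
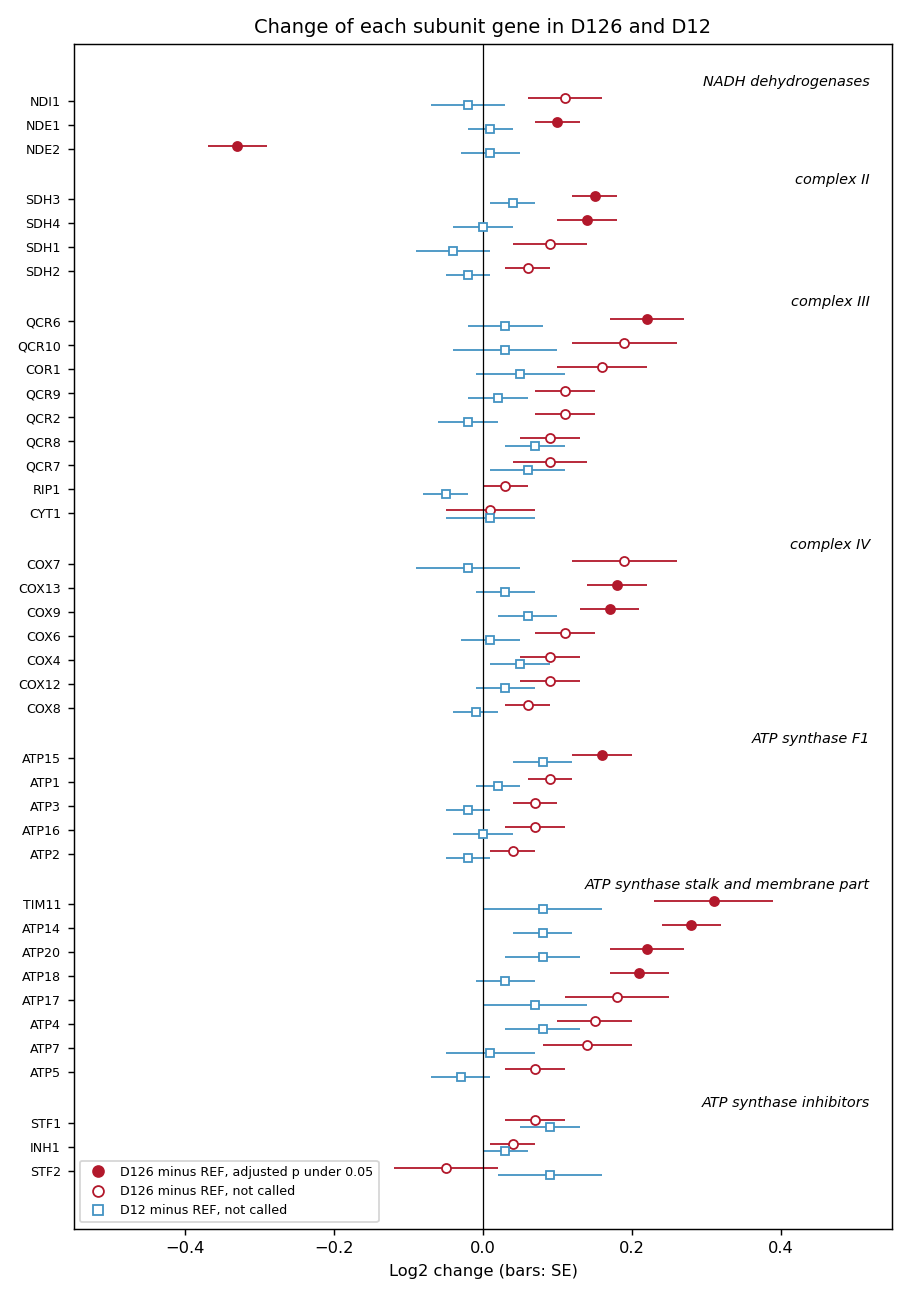
Log2 change of each of the 39 genes in D126 minus REF (red circles, filled where called at an adjusted p under 0.05) and in D12 minus REF (blue squares, none called), with SE bars, grouped by complex. In D126, 37 genes lie right of 0 and NDE2 lies apart at -0.33.

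Of the NADH dehydrogenases that face the cytosol, NDE2 fell in D126, and NDE1 rose by a small amount at the edge of the threshold. NDE2 (YDL085W) read 12.42, 12.45 and 12.44 in D126, 12.74, 12.85 and 12.74 in D12, and 12.74, 12.77 and 12.79 in REF. The D126 values lay below all 6 others without overlap, whereas those of D12 and REF overlapped. NDE2 fell by 0.33 in D126 (SE 0.04, adjusted p = 0.000547), a linear change of -20.5%. NDE1 (YMR145C), which encodes the other external enzyme, read 14.37, 14.32 and 14.30 in D126, 14.24, 14.25 and 14.21 in D12, and 14.24, 14.23 and 14.22 in REF. Its D126 values lay above all others, and NDE1 rose by 0.10 (SE 0.03, adjusted p = 0.049). That call stood just inside the threshold. It was lost with quantile normalization (adjusted p = 0.0605), with arrays centred on their medians (0.0618), with all non-control probe sets (0.181) and with the replicate number as a block, over all strains (0.08) or on the D126 and REF arrays alone (0.0566). It was also lost without each of the 3 REF arrays (0.105, 0.127 and 0.139), without each of the 3 D126 arrays (0.118, 0.094 and 0.0797), without D12 replicate 1 (0.0554) or 2 (0.061) and with 3 arrays left out together (0.11).

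The log2 ratio of NDE1 to NDE2 signal within an array restates these values for the pair and was taken after they were seen. It was 1.96, 1.87 and 1.86 in D126, 1.5, 1.40 and 1.48 in D12, and 1.5, 1.46 and 1.42 in REF. The ratio was 0.43 higher in D126 than in REF (1.89 ± 0.05 and 1.46 ± 0.04, n = 3 each) and 0.43 higher than in D12. It is given as a description and gives no amount of one transcript relative to the other. An exact permutation test of the ratio gave p = 0.1 for D126 minus REF and for D126 minus D12. That is the smallest p that 20 splits allow, so the test could not reach 0.05. NDI1 (YML120C), the matrix-facing enzyme, read 13.51, 13.33 and 13.34 in D126, 13.24, 13.26 and 13.31 in D12, and 13.33, 13.30 and 13.23 in REF. One D126 array stood well above the other two, and the difference of 0.11 (SE 0.05, adjusted p = 0.167, 95% interval -0.01 to 0.23) did not pass the test.

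**Figure D3:**
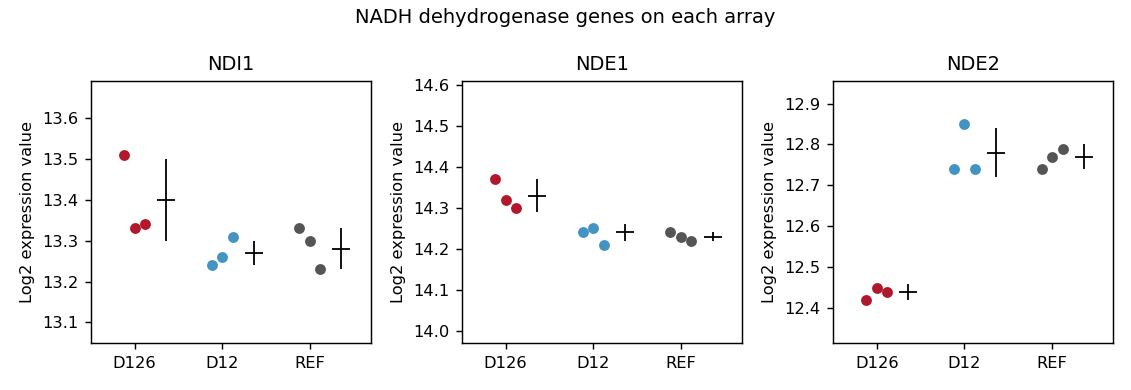
Log2 expression value of NDI1, NDE1 and NDE2 on each array of D126, D12 and REF (points), with mean and SD beside them; every panel spans the same log2 range. NDE2 lies at 12.42 to 12.45 in D126, below all D12 and REF arrays.

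Complex II, succinate dehydrogenase, links the citric acid cycle to the chain. Of its 4 genes 2 rose and 0 fell, against 8.59% and 12.9% of all genes. Both encode the subunits that anchor the enzyme in the membrane. SDH3 (YKL141W) read 13.85, 13.84 and 13.82 in D126, 13.76, 13.72 and 13.72 in D12, and 13.74, 13.69 and 13.64 in REF. The D126 values stood above all others, with a change of 0.15 from REF (SE 0.03, adjusted p = 0.0151). SDH4 (YDR178W) read 14.06, 14.00 and 13.97 in D126, 13.85, 13.90 and 13.84 in D12, and 13.91, 13.89 and 13.80 in REF, again without overlap, and rose by 0.14 (SE 0.04, adjusted p = 0.035). The catalytic subunits, the flavoprotein gene SDH1 and the iron-sulfur gene SDH2, differed by 0.09 (adjusted p = 0.181) and 0.06 (0.23), and their D126 and REF values overlapped. The SDH3 call was lost without REF replicates 2 or 3 (adjusted p = 0.0575 and 0.0587). The SDH4 call was lost without the same arrays (0.0774 and 0.118) and without D126 replicates 1, 2 or 3 (0.0991, 0.0768 and 0.0554). The SDH3 and SDH4 calls were also lost with all non-control probe sets (0.0731 and 0.124) and with 3 arrays left out together (0.0531 and 0.111). Against D12, the D126 values lay wholly above for all 4 genes (14.7% of all genes). Those changes were 0.13 for SDH1, 0.09 for SDH2, 0.10 for SDH3 and 0.15 for SDH4. Whether anchor and catalytic subunit genes differ was not tested.

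Complex III showed 1 gene called higher of 9 (11.1%), a share near the 8.59% of all genes. QCR6 (YFR033C), which encodes the acidic subunit near the cytochrome c docking site, read 14.21, 14.10 and 14.08 in D126, 14.03, 13.92 and 13.90 in D12, and 13.92, 13.89 and 13.93 in REF. Every D126 value lay above the other 6, and QCR6 rose by 0.22 (SE 0.05, adjusted p = 0.011). The small subunit gene QCR10 differed by 0.19 (SE 0.07, adjusted p = 0.0691), with D126 replicate 1 at 13.91 and the others at 13.68 and 13.70. The core subunit genes COR1 and QCR2 differed by 0.16 (adjusted p = 0.069) and 0.11 (0.0905), and the small subunit genes QCR9, QCR8 and QCR7 by 0.11, 0.09 and 0.09 (0.0832, 0.191 and 0.25). Against REF, the 2 nuclear-encoded redox subunits of this complex lay closest to 0. CYT1, for cytochrome c1, stood at 13.53 ± 0.07 in D126 and 13.53 ± 0.08 in REF, with a 95% interval of the difference of -0.13 to 0.14. RIP1, for the Rieske iron-sulfur protein, stood at 14.11 ± 0.03 in D126 and 14.08 ± 0.00 in REF, with an interval of -0.04 to 0.10. RIP1 was among the 8 genes whose D126 values lay above those of REF. Against D12 the order differed, with RIP1 at 0.08, above QCR7 at 0.03 and QCR8 at 0.02.

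In complex IV, 2 of 7 nuclear subunit genes rose (28.6%, against 8.59% of all genes), and the 3 D126 values lay above the 3 REF values for all 7 (22.2% of all genes). COX13 (YGL191W), for subunit VIa, read 14.10, 14.06 and 14.06 in D126, 13.91, 13.88 and 13.95 in D12, and 13.93, 13.87 and 13.86 in REF. The D126 arrays agreed closely and stood clear of the rest, with a change of 0.18 (SE 0.04, adjusted p = 0.00677). COX9 (YDL067C), for subunit VIIa, read 13.93, 13.89 and 13.89 in D126, 13.77, 13.72 and 13.87 in D12, and 13.74, 13.77 and 13.68 in REF. D12 replicate 3 came within 0.02 of the lower D126 arrays, and COX9 rose by 0.17 over REF (SE 0.04, adjusted p = 0.0226). COX7, for subunit VII, differed by as much (0.19) but with a wider error (SE 0.07, adjusted p = 0.0751). The remaining subunit genes COX6, COX4, COX12 and COX8 differed by 0.06 to 0.11, with adjusted p between 0.0892 and 0.223. The COX9 call was lost with the replicate block over all strains (adjusted p = 0.0545) and held with the block on the D126 and REF arrays alone (0.0161). It was also lost with quantile normalization (0.0511) and with all non-control probe sets (0.0865). Leaving out REF replicates 1 or 3 (0.0572 and 0.083) or D126 replicates 1, 2 or 3 (0.0669, 0.0517 and 0.0636) ended it too.

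The ATP synthase consists of the catalytic F1 head in the matrix and of a membrane part with a peripheral stalk that holds the head in place. Of its 13 subunit genes, 5 rose and 0 fell, against 8.59% and 12.9% of all genes. In the group of stalk and membrane subunits 4 of 8 genes rose, with a median of 0.19 over all 8. In the F1 head 1 of 5 rose, with a median of 0.07. Whether these groups differ was not tested.

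Among the stalk and membrane subunits, TIM11 (YDR322C-A), for subunit e, read 14.02, 13.91 and 13.92 in D126, 13.64, 13.63 and 13.90 in D12, and 13.65, 13.74 and 13.53 in REF. D12 replicate 3 stood with the D126 arrays, apart from the other D12 arrays. TIM11 rose by 0.31 over REF (SE 0.08, adjusted p = 0.0241). ATP20 (YPR020W), for subunit g, read 13.80, 13.66 and 13.72 in D126, 13.53, 13.54 and 13.70 in D12, and 13.54, 13.51 and 13.48 in REF. The same D12 array overlapped the D126 range here, and ATP20 rose by 0.22 over REF (SE 0.05, adjusted p = 0.0196). Subunits e and g hold ATP synthase dimers together, which shape the folds of the inner membrane.

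ATP14 (YLR295C), for subunit h of the peripheral stalk, read 13.73, 13.64 and 13.67 in D126, 13.50, 13.40 and 13.54 in D12, and 13.43, 13.37 and 13.38 in REF. The D126 values lay above all others, a rise of 0.28 over REF (SE 0.04, adjusted p = 0.00228) or 21.7% on the linear scale. ATP18 (YML081C-A), for a small membrane subunit, read 13.69, 13.61 and 13.66 in D126, 13.49, 13.50 and 13.43 in D12, and 13.50, 13.41 and 13.44 in REF. It was likewise separate in D126 and rose by 0.21 (SE 0.04, adjusted p = 0.00569). The subunit genes ATP17, ATP4, ATP7 and ATP5 were not called, with differences of 0.18, 0.15, 0.14 and 0.07 and adjusted p of 0.09, 0.0551, 0.109 and 0.216. The TIM11 call was lost with the replicate block over all strains (adjusted p = 0.0587) and held with the block on the D126 and REF arrays alone (0.0112). It was also lost without REF replicates 1 or 3 (0.061 and 0.0841) and without D126 replicates 1 or 3 (0.0793 and 0.0591). The ATP20 call was lost without REF replicates 2 or 3 (0.0674 and 0.0698) and without D126 replicates 1 or 3 (0.0645 and 0.0582). Testing all non-control probe sets ended the TIM11 and ATP20 calls (0.0739 and 0.0711).

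**Figure D4:**
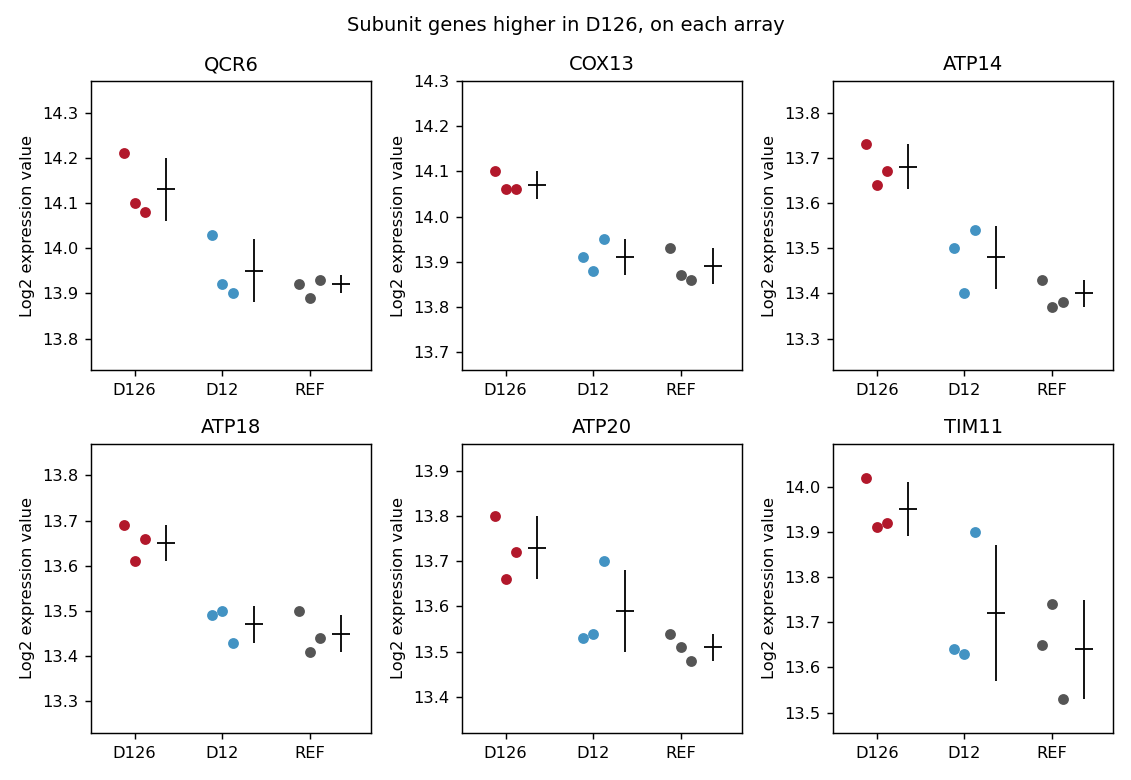
Log2 expression value of 6 called genes of complexes III and IV and of the ATP synthase on each array of D126, D12 and REF (points), with mean and SD beside them; every panel spans the same log2 range. The D126 arrays lie above all REF arrays in each panel, while D12 replicate 3 reaches the D126 arrays for ATP20 and approaches them for TIM11.

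In the F1 head, ATP15 (YPL271W), for the epsilon subunit of the central stalk, read 14.37, 14.25 and 14.28 in D126, 14.20, 14.22 and 14.25 in D12, and 14.12, 14.15 and 14.16 in REF. The D12 values lay above those of REF, and the highest of them met the lowest D126 value. ATP15 rose in D126 by 0.16 over REF (SE 0.04, adjusted p = 0.0189). The call was lost without REF replicates 1 or 2 (adjusted p = 0.0674 and 0.0652) or D126 replicate 3 (0.0529). It was also lost with all non-control probe sets (0.0816). ATP1 and ATP2, which encode the alpha and beta subunits that form the catalytic hexamer, differed by 0.09 (adjusted p = 0.0696) and 0.04 (0.384). The genes for the gamma and delta subunits of the rotor, ATP3 and ATP16, each differed by 0.07 (0.167 and 0.222).

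None of the 3 inhibitor genes was called in D126 by limma, and 0 had an unadjusted p under 0.05. INH1 (YDL181W), for the protein that blocks ATP hydrolysis by the enzyme when the proton gradient collapses, read 14.05, 14.09 and 14.05 in D126, 14.08, 14.05 and 14.04 in D12, and 14.03, 14.05 and 14.00 in REF. D126 minus REF was 0.04 with a 95% interval of -0.03 to 0.11. STF1 (YDL130W-A), its close relative, read 13.43, 13.32 and 13.30 in D126, 13.35, 13.40 and 13.37 in D12, and 13.33, 13.25 and 13.25 in REF. Its D126 and REF values overlapped, with a difference of 0.07 (interval -0.02 to 0.17). STF2 (YGR008C), a hydrophilic protein first linked to the inhibitor complex and also to tolerance of drying, read 13.82, 13.67 and 13.66 in D126, 13.73, 13.85 and 13.99 in D12, and 13.84, 13.79 and 13.67 in REF. It was the member other than NDE2 whose mean was lower in D126 than in REF, at -0.05 (interval -0.22 to 0.12).

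The second comparison set D126 against D12 and so asked what accompanied the added D6-desaturase. Of the 39 genes, 5 rose in D126 and 1 fell, where 7.32% of all genes were called higher and 14.7% lower. The comparison shares the D126 arrays with the first one. Changes above 0 numbered 35 of 39, against 43.7% of all genes, and the median was 0.10. The D126 values lay wholly above those of D12 for 20 genes and wholly below for 1, against 14.7% and 23.8% of all genes. At an unadjusted p under 0.05, 21 genes were higher and 1 lower, against 13.5% and 22.5% of all genes. NDE2 fell by 0.34 (SE 0.04, adjusted p = 0.000473), in each of 19 alternative fits. The genes that rose were ATP14 by 0.20 (adjusted p = 0.0118), ATP18 by 0.18 (0.0111), QCR6 by 0.18 (0.0209), COX13 by 0.16 (0.0131) and SDH4 by 0.15 (0.0342). TIM11 and COX7 differed by more, 0.23 and 0.21, but were not called (0.0711 and 0.0546). In both, D12 replicate 3 stood above the other D12 arrays.

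Counts in this comparison moved with scaling and with that array. The number of rising genes was 11 with quantile normalization, 14 with arrays centred on their medians, 12 without D12 replicate 3, 3 without D12 replicate 2 and 3 without D126 replicate 1. The split over all genes, 399 higher and 801 lower, was 593 and 630 with quantile normalization and 536 and 703 with centring. It was 442 and 680 without D12 replicate 3, 223 and 592 without D12 replicate 2, and 259 and 612 without D126 replicate 1. For SDH4 the call ended without REF replicate 2 (adjusted p = 0.055) and without any 1 of the D12 arrays (0.0683, 0.0516 and 0.0688). It also ended without any 1 of the D126 arrays (0.0984, 0.0746 and 0.0563). The QCR6 call ended without D12 replicate 2 (0.0682) or D126 replicate 1 (0.0594). The SDH4 and QCR6 calls also ended on the D126 and D12 arrays alone (0.0577 and 0.06) and with 3 arrays left out together (0.0639 and 0.0977). The ATP18 call ended with 3 arrays left out together (0.0583), and the SDH4 call with array weights (0.0508). With all non-control probe sets, 0 of the 5 rising calls held (adjusted p from 0.0506 to 0.122).

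The third comparison asked whether the D12-desaturase alone was accompanied by a change. Limma called 0 of the 39 genes between D12 and REF (0% of all genes), and 0 of the 39 had an unadjusted p under 0.05, where 4.2% of all genes did so on the higher side and 1.78% on the lower. Differences ran from -0.05 to 0.09 with a median of 0.03, against 0.013 over all genes, and 27 of 39 were above 0 (59.7% of all genes). With D126 replicate 1, D12 replicate 3 and REF replicate 3 left out, 13 were above 0 and the median was -0.023. Over all genes the median in that fit was -0.003, with 11 called higher and 2 lower, and 0 of the 39 among them. The bounds of the 95% intervals over the 39 genes ran from -0.17 to 0.26, so larger shifts than these lie outside every gene's interval. The smallest p-values belonged to STF1 (0.09 higher, adjusted p = 0.817), ATP15 (0.08, 0.831) and ATP14 (0.08, 0.832). The D12 values lay wholly above those of REF for STF1 and ATP15 (6.2% of all genes) and wholly below for RIP1 (3.96% of all genes). NDE2 stood at 12.78 ± 0.06 in D12 and 12.77 ± 0.03 in REF.

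Other genes of the same machinery, from lists drawn up beside the members, moved in D126 as follows. Cytochrome c has an aerobic form, CYC1, and a hypoxic form, CYC7, and subunit V of complex IV has the pair COX5A and COX5B. CYC1 rose to 14.21 ± 0.09 in D126, against 14.00 ± 0.04 in REF (change 0.21, adjusted p = 0.0184), a call lost without REF replicate 2 (0.0767) or 3 (0.0536). CYC7 differed from REF by -0.19 (0.134), COX5A by 0.03 (0.492) and COX5B by -0.12 (0.159). Against D12, COX5B was called (change -0.24, adjusted p = 0.0138), while CYC7 and COX5A were not (0.114 and 0.447). That COX5B call was lost with quantile normalization (0.129) and with all non-control probe sets (0.0517). ATP19, for a further small subunit of the ATP synthase membrane part, rose to 13.13 ± 0.14, against 12.82 ± 0.04 in REF (change 0.31, adjusted p = 0.0121), and was called in all 20 alternatives.

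Of 32 assembly factors of the complexes, 10 rose and 0 fell in D126, with a median of 0.11, where 8.59% of all genes rose and 12.9% fell. COX17, a copper chaperone for complex IV, stood at 12.15 ± 0.23 in D126 and 11.71 ± 0.11 in REF (change 0.44, SE 0.13, adjusted p = 0.0426). That call was lost in 8 of 20 alternatives, among them those without any 1 of the REF or D126 arrays (adjusted p up to 0.133). SDH7, for complex II assembly, rose by 0.28 (adjusted p = 0.00562) and was called in all 20. Mitochondrial ribosomal proteins, which translate the mitochondrially encoded subunits, followed the same direction. Of 54 genes 16 rose (29.6%, against 8.59% of all genes) and 0 fell, and all 54 differences were above 0 with a median of 0.15. RSM27 rose by 0.35 (adjusted p = 0.00255) and MRPS8 by 0.33 (0.0234). MRPS8 was not called without D126 replicate 1, without any 1 of the REF arrays or with all non-control probe sets (adjusted p up to 0.0717).

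The regulators did not move as one. HAP1 fell to 12.10 ± 0.09 in D126, against 12.48 ± 0.03 in REF (change -0.38, SE 0.05, adjusted p = 0.000753), and was called in all 20 alternatives. HAP4, the activating subunit of the CCAAT-binding complex, stood at 12.63 ± 0.08 in D126 and 12.45 ± 0.14 in REF and was not called (change 0.18, adjusted p = 0.215). HAP3 rose by 0.14 (adjusted p = 0.0455), a call lost in 12 of the 20 alternatives (adjusted p up to 0.145). Among these were the fits without any 1 of the REF or D126 arrays and the fit of all non-control probe sets. HAP2 and HAP5 differed by -0.06 and -0.08 (0.237 and 0.249).

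A list of genes linked to low oxygen lay on the other side. Of these 10 hypoxic genes, CYC7 and COX5B among them, 5 fell and 0 rose in D126, with a median of -0.21, where 12.9% of all genes fell and 8.59% rose. The list includes ROX1, the gene of a repressor of hypoxic genes, which differed by -0.05 (adjusted p = 0.578). TIR4 and DAN1, which encode cell wall mannoproteins, fell by 1.29 (adjusted p = 0.000757) and 0.98 (0.000903). Their part in the changes of the respiratory genes was not tested.

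**Figure D5:**
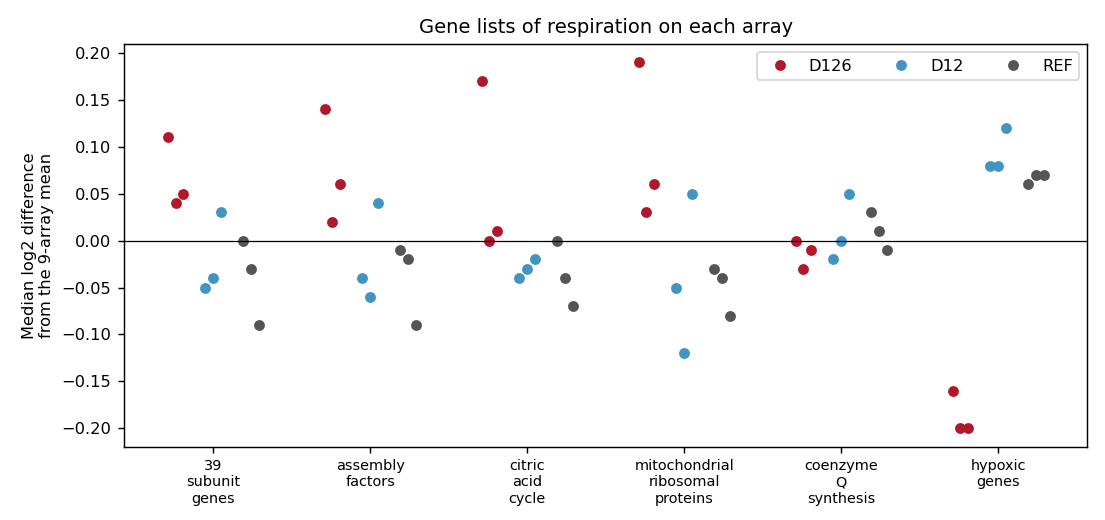
Median log2 difference from the 9-array mean of 6 gene lists (x axis) on each array of D126, D12 and REF (points, replicates 1 to 3 from left to right). For the 39 subunit genes the D126 arrays lie at 0.04 to 0.11 and for the hypoxic genes at -0.20 to -0.16.

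Markers of cell types were read beside these results. All 6 markers of MATa cells rose in D126, where 8.59% of all genes were called higher and 12.9% lower. Their mean level was 12.12 to 12.14 on the D126 arrays, 11.64 to 11.76 on the D12 arrays and 11.63 to 11.72 on the REF arrays. Of 4 markers of MATalpha cells 1 rose (mean level 7.93 to 8.03 in D126, 7.92 to 8.09 in D12 and 7.87 to 7.92 in REF). That marker, MF(ALPHA)1, stood at 6.63 in D126 and 6.11 in REF, close to the background limit of 5.64. STE3 and SAG1 differed by -0.12 and -0.16 and MF(ALPHA)2 by 0.09, none called. Of 8 markers of sporulating cells 1 rose and 1 fell (7.31 to 7.42, 7.35 to 7.74 and 7.30 to 7.49), shares near those of all genes. SPS4 changed by 0.57 (adjusted p = 0.00793) and SPR3 by -0.6 (0.0295). SPS2 lay under the background limit in every strain. The part of cell type in the respiratory changes was not tested.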

How the data were processed

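The deposited values are log2 expression, 1 column per array. The submitters' processing notes name RMA and affy, without versions. RMA scales arrays to each other, so a change in total RNA per cell cannot be seen. Probe signals and scan batches were not analysed here. Strains and replicate numbers came from the sample titles.

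Of 10928 probe sets, 7244 carry 1 gene in the platform's table. The R64 gene table matched 5498 of them by gene identifier, for 5449 genes, and the brightest probe set per gene was used. Strains were compared with limma 3.58.1 in R 4.3.3, with strain as the term over all 9 arrays, after a check on simulated data. The number of arrays limits the precision. P-values were adjusted by Benjamini-Hochberg over the 5449 genes. The background limit of 5.64 is the 95th percentile of probe sets of genes outside the R64 table.

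Members, lists and tests were chosen with earlier results of these data known. Named by rule were, in each role group, up to 3 called members with the largest change between D126 and REF, all NADH dehydrogenases and inhibitors, members called against D12, the 3 members with the smallest p between D12 and REF, HAP4, and in each further list up to 2 called genes with the largest change, or 1 as a value. All other genes in the text, such as uncalled members, CYC7, COX5A, COX5B, HAP2, HAP5 and SPS2, were named after their values were seen. The lists of cell type markers were outside the rule. The promoter motif search that had been planned was not run, since no sequence was used here.

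Deviations from strain means correlated weakly between D126 and REF arrays of the same number (0.22, 0.18 and 0.13). For D126 and REF arrays of different numbers the values were -0.23 to 0.05. Same-numbered arrays did not correlate positively for D126 with D12 (-0.28, -0.02 and -0.16) or for D12 with REF (-0.08, -0.21 and -0.34). D12 and REF arrays of different numbers reached 0.30. The labels do not say what a replicate number marks, so the main fit had no block. A fit with the replicate number as a block was set beside it. Alternatives covered scaling, filters, probe sets, weights, the variance prior, the samples in the fit, the block and single arrays.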

Additional observations from a re-analysis of the deposited data

How the results depend on the processing

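For D126 minus REF, the count of rising members (11) was 4 when all 10715 non-control probe sets were tested, 22 with array weights and 17 with a mean-variance trend. It was 8 with the replicate block over all strains and 16 with the block on the D126 and REF arrays alone, an alternative chosen after seeing the data. Leaving out 1 array at a time gave 5 to 16. The falling count (1) was 2 with array weights, where STF2 joined NDE2, and 1 without each array. For D126 minus D12, the rising count (5) was 11 with quantile normalization, 14 with arrays centred on their medians, 0 with all non-control probe sets, 18 with array weights, 15 with the trend, 3 with both strains alone, 11 with 3 arrays left out together and 3 to 12 without 1 array; with the replicate block it was 5. The falling count (1) was 2 with array weights and 1 without each array. For D12 minus REF, both counts were 0 in the alternatives run. The cause of these shifts was not tested.

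Over single members, the alternatives lost 48 calls and added 36 in D126 minus REF and lost 20 and added 57 in D126 minus D12; 0 reversed. The replicate block over all strains ended the calls of NDE1, COX9 and TIM11 in D126 minus REF and changed no other member's call there or in D126 minus D12. The block on the D126 and REF arrays alone ended the NDE1 call and added COR1, QCR10, COX7, ATP4, ATP7 and ATP17 (adjusted p from 0.0236 to 0.0407). Over all genes, D126 minus REF had 468 higher and 705 lower calls, against 230 and 400 with all non-control probe sets and 1181 and 1434 with array weights. D126 minus D12 had 399 and 801, against 191 and 464 and against 883 and 1174 in the same settings, and 242 and 538 with both strains alone. Without 1 array, higher calls over all genes numbered 241 to 651 in D126 minus REF and 208 to 472 in D126 minus D12. The smallest member change called was 0.10, with 3 arrays per strain.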

Other observations

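The citric acid cycle, which supplies the chain with NADH and succinate, showed 4 called genes of 12 in D126 minus REF, all higher, with a median of 0.07, where 8.59% of all genes were called higher. CIT3, a mitochondrial citrate and methylcitrate synthase, stood at 12.40 ± 0.03 in D126 and 11.89 ± 0.07 in REF (n = 3 each; change 0.51, SE 0.05, limma adjusted p = 0.000332). IDH1, a subunit of the NAD-dependent isocitrate dehydrogenase, stood at 13.52 ± 0.05 in D126 and 13.18 ± 0.02 in REF (change 0.34, adjusted p = 0.000624). Both were called in all 20 alternatives. The 8 cycle genes that were not called differed by 0.04 to 0.11.

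Of 9 genes of coenzyme Q synthesis, the route to yeast ubiquinone, 0 rose and 1 fell in D126 (11.1%, a share near the 12.9% of all genes), 3 differences lay above 0 and the median was -0.01. COQ4 stood at 11.91 ± 0.02 in D126 and 12.09 ± 0.03 in REF (change -0.18, SE 0.04, adjusted p = 0.0154). Leaving out REF replicate 2 or D126 replicate 3 ended this call (adjusted p = 0.0668 and 0.0614), as did testing all non-control probe sets (0.0645). Among 9 other donors and carriers of the inner membrane 0 were called by limma, while 3 had an unadjusted p under 0.05, all higher. AAC1, an ADP/ATP carrier, had the largest difference there, 0.22 (SE 0.13, adjusted p = 0.243).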
